A study of Mus musculus with 24 samples.

Results

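The gene T-bet (Tbx21) was deleted in regulatory T cells of female and male mice, and the question taken up here is whether whole visceral fat responded differently in the 2 sexes. Total RNA of visceral (perigonadal) fat was sequenced from mice aged 27 to 33 weeks. The comparison uses 16 of the 24 libraries of the series. The other 8, from mice with Pparg deleted in the same cells, are in none of the groups compared. They enter through the shared fit, in the expression filter, the scaling, the batch term and the estimate of spread. The groups were control females, control males, Tbet knockout females and Tbet knockout males, with 4 libraries each. Controls are labelled Foxp3cre, so all 4 groups carry Cre recombinase driven from Foxp3, and the knockouts, labelled TbetFoxp3cre, lack Tbx21 only where that Cre is active. The members were chosen by label, and the measure is the difference between effects: Tbet knockout minus control in males, minus Tbet knockout minus control in females. A positive difference on the log2 scale means that the knockout raised a gene more, or lowered it less, in males than in females.

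Regulatory T cells restrain immune responses and depend on the transcription factor Foxp3. T-bet is the transcription factor of type 1 immunity, the branch driven by interferon gamma, and part of the regulatory T cells also expresses it. Visceral fat of mice holds a resident population of regulatory T cells that is known to be larger in males than in females and to influence inflammation and insulin sensitivity. Fat also makes fatty acids from acetyl-CoA, a programme controlled by the factors SREBP-1, ChREBP and LXR, while SREBP-2 controls cholesterol synthesis.

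Library totals ranged from 14250142 to 30769949 counts in control females, from 15789476 to 24775804 in control males, from 8345575 to 25882749 in Tbet knockout females and from 12551619 to 27520628 in Tbet knockout males. In each group replicates 1 and 3 belong to batch 1 and replicates 2 and 4 to batch 2, by the titles. Levels are CPM (counts relative to the scaled library size), given in the order of replicates 1 to 4. Nothing in the labels says that the libraries came from separate animals, so p-values measure only the spread between these libraries, which may be technical. In bulk tissue, fewer cells of a type and less RNA per cell cannot be told apart.

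The sex labels matched the sex genes. Xist, the X-inactivation RNA, ranged from 549 to 1148 CPM in the female libraries and from 0.142 to 23.3 CPM in the male ones, and the Y-linked Ddx3y ranged from 0 to 0.467 CPM and from 87.7 to 165 CPM. The tissue label matched 8 adipocyte markers, none of them at 0 in any library, with summed levels from 8266 to 52210 CPM. Tbx21 itself (chromosome 11, 97098007 to 97115331) was low in whole fat, at 0.986, 1.27, 0.441 and 1.05 CPM in control females and 2.64, 1.17, 0.659 and 0.909 CPM in Tbet knockout females. Control males had 1.14, 0.62, 1.17 and 1.75 CPM and Tbet knockout males 0.102, 0.746, 0.284 and 1.28 CPM. The groups overlapped in both sexes, and the difference was −1.78 (SE 1.05, adjusted p = 0.526 in edgeR's quasi-likelihood test). Other lymphocytes express Tbx21 too, so this level does not check the genotype. Foxp3 had a difference of −0.73 (adjusted p = 0.812), and its 4 group ranges overlapped.

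Of the 16 libraries, 2 stood apart by their epithelial transcripts. The summed level of 6 epithelial markers was 602 CPM in control female replicate 1, which is 21.7 times the median of the 24 libraries, and 10.3 to 21.2 CPM in the other control females. In Tbet knockout male replicate 4 it was 216 CPM, 7.8 times that median. Control female replicate 1 also had the lowest adipocyte, endothelial and macrophage marker sums of the 16 libraries. Results that rest on these libraries are given with and without them. Fits without the libraries with epithelial transcripts left out all 5 of the 24 over 4 times the median, Pparg knockouts among them.

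Of 17824 genes tested, 1 passed the threshold for the difference between the sexes, an adjusted p under 0.05 in edgeR's quasi-likelihood test: Abcg1, with a negative difference. That is 0.00561% of the genes tested. At an unadjusted p under 0.05 there were 1049 genes with a positive difference (5.89%) and 1001 with a negative one (5.62%). The median difference over all genes tested was 0.03, and 53.9% of genes had a positive one.

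Seen by sex, the knockout changed 218 genes in females, 104 higher (0.583%) and 114 lower (0.64%), and 1 gene in males (0.00561%). The effects of all genes had an SD of 1.12 on the log2 scale in females and 0.61 in males. Of the 218 genes called in females, 200 had an effect within 0.5 log2 units of 0 in males and 98 had the opposite sign there. Their median absolute effect in males was 0.14, near the 0.15 of all genes tested. The shares of all genes tested were not computed, so the counts of 200 and 98 are not read as particular to these genes. Read by genotype, 4848 genes differed between the sexes in controls (27.2%) and 1659 in Tbet knockouts (9.31%). These comparisons share libraries with the difference, so their calls do not add evidence to it.

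**Figure D1:**
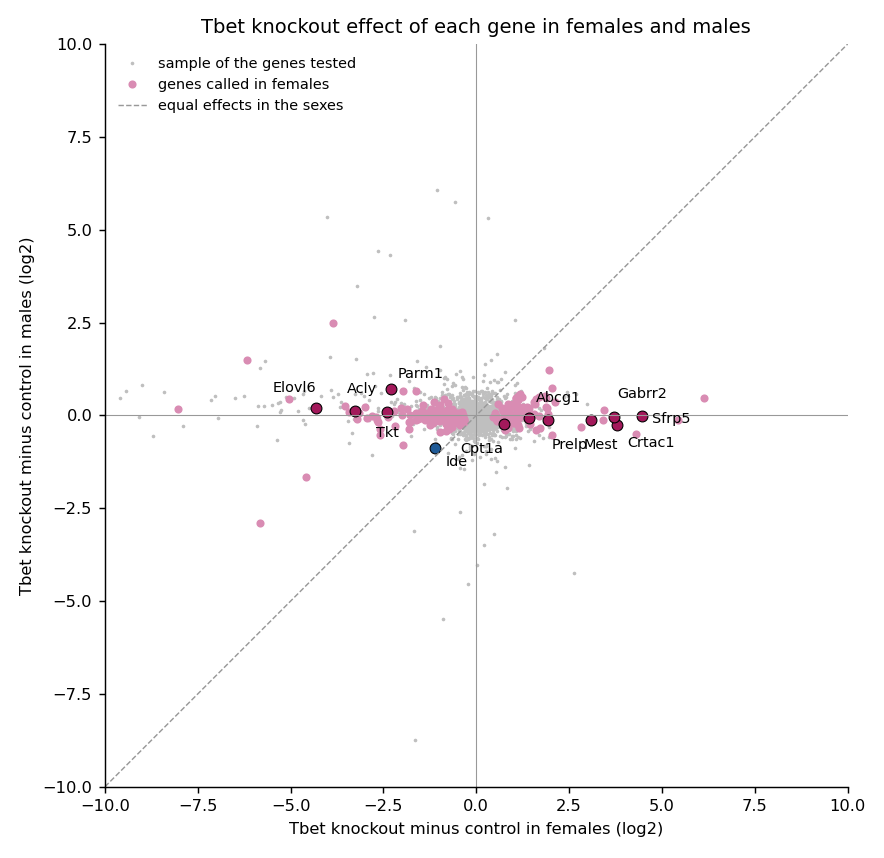
Each point is a gene, with its log2 Tbet knockout effect in females on the horizontal axis and in males on the vertical axis. Grey points are a random sample of the genes tested, pink points genes called in females (1 gene at 0 in all control females is left out), and marked genes are described in the text. Most genes called in females (200 of 218) lie within 0.5 of the horizontal line of no effect in males. The share of all genes tested that lies there was not computed. Their median absolute effect in males was 0.14, near the 0.15 of all genes tested. Ide, in blue, lies near the diagonal of equal effects.

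Fatty acid and cholesterol synthesis were the 2 lists with the most members at an unadjusted p under 0.05 (16 each), so the stretch before the start site is shown for 2 members of each list, those with the smallest p that have a window in RefSeq's GRCm38.p6 promoter table and are named here. Each is the 250 bases before the annotated start, 5′ to 3′ on the gene's strand. Capitals mark CCAAT (the box bound by NF-Y), GGGCGG (the GC box bound by Sp1), CACGTG (the E-box) or TCACNCCAC (a sterol regulatory element), each searched on both strands. The 4 windows were chosen after values were seen.
Elovl6, chr3:129532136-129532385, plus strand: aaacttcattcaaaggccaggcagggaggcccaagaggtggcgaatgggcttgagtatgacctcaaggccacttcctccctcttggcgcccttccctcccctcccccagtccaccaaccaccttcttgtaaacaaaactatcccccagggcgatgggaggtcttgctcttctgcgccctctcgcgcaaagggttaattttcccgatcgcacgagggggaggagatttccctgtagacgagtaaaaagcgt
Acly, chr11:100528001-100528250, minus strand: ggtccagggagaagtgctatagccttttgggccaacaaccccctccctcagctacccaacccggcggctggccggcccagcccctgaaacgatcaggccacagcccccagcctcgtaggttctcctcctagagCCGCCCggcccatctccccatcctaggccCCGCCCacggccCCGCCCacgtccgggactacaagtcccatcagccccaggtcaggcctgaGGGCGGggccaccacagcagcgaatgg
Nsdhl, chrX:72918271-72918520, plus strand: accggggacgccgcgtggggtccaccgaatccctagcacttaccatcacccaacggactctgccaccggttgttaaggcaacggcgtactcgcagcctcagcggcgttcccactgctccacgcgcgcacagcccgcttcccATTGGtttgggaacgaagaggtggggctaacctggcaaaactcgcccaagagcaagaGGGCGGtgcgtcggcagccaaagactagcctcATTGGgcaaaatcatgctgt
Lss, chr10:76531355-76531604, plus strand: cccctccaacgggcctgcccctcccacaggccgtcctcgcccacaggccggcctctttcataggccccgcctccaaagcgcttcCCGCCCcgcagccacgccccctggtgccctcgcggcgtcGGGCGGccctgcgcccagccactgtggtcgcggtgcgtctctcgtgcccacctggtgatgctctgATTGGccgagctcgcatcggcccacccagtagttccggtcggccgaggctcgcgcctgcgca

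None of the 4 motifs was found in the Elovl6 window. Acly held 4 GC boxes, Nsdhl 2 CCAAT boxes and 1 GC box, and Lss 1 CCAAT box and 2 GC boxes. Over the cholesterol synthesis list, CCAAT was present in 15 of 16 windows (93.8%) and GGGCGG in 15 of 16, against 35.8% and 54.4% of the windows of the 13168 tested genes that have one. Over the fatty acid synthesis list they were present in 10 of 16 windows (62.5%) and 7 of 16 (43.8%). CACGTG was found in 3 of 16 windows of each list (18.8%) against 7.85%, and TCACNCCAC in 1 of 16 and 0 of 16 against 1%. A match describes the letters only.

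Abcg1 encodes a transporter that moves cholesterol out of cells and is a classic target of the oxysterol receptors LXR. In control females it stood at 33, 16.1, 29.9 and 20.8 CPM, and in Tbet knockout females at 70.5, 62.1, 64.9 and 65 CPM. In males it stood at 56.8, 38.7, 56.7 and 48.2 CPM in controls and at 52.5, 41.6, 52.8 and 42.4 CPM in Tbet knockouts. The female groups did not overlap, every Tbet knockout female lay above all other libraries, and the male groups overlapped. The knockout raised Abcg1 2.68-fold in females (log2 1.42, SE 0.16, adjusted p = 0.000676 in edgeR) and left a log2 effect of −0.08 (SE 0.16) in males, so the difference was −1.50 (SE 0.23, adjusted p = 0.0405 in edgeR). Abcg1 lies on chromosome 17, from 31057694 to 31117984 in GRCm38.

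The direction of the Abcg1 difference was the same under all 30 alternatives, from −1.83 to −1.21, and it was called under 10 of them. In batch 1 alone it was −1.21 (adjusted p = 0.0206 in edgeR) and in batch 2 alone −1.83 (adjusted p = 0.0709). Leaving out single libraries moved its adjusted p between 0.0105 and 0.197, and the call was kept in 2 of these fits, without control female replicate 1 or without control male replicate 2, and lost in the others.

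Other genes of the LXR pathway, chosen after their values were seen, did not pass the test. Nr1h3, which encodes LXR alpha, stood at 38.4, 104, 74.6 and 80.9 CPM in control females, 112, 121, 127 and 91.2 CPM in Tbet knockout females, 184, 84.3, 213 and 103 CPM in control males and 131, 99.7, 152 and 72.7 CPM in Tbet knockout males. Its difference was −0.89 (SE 0.41, adjusted p = 0.418 in edgeR). Control female replicate 1 was the lowest of the 16 libraries. Nr1h2 (LXR beta) had a difference of −0.26, Mylip (a ubiquitin ligase induced by LXR) −0.67, Apoe (apolipoprotein E) −0.60 and Abca1 (the partner cholesterol transporter) −0.19, with adjusted p values from 0.453 to 0.818.

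**Figure D2:**
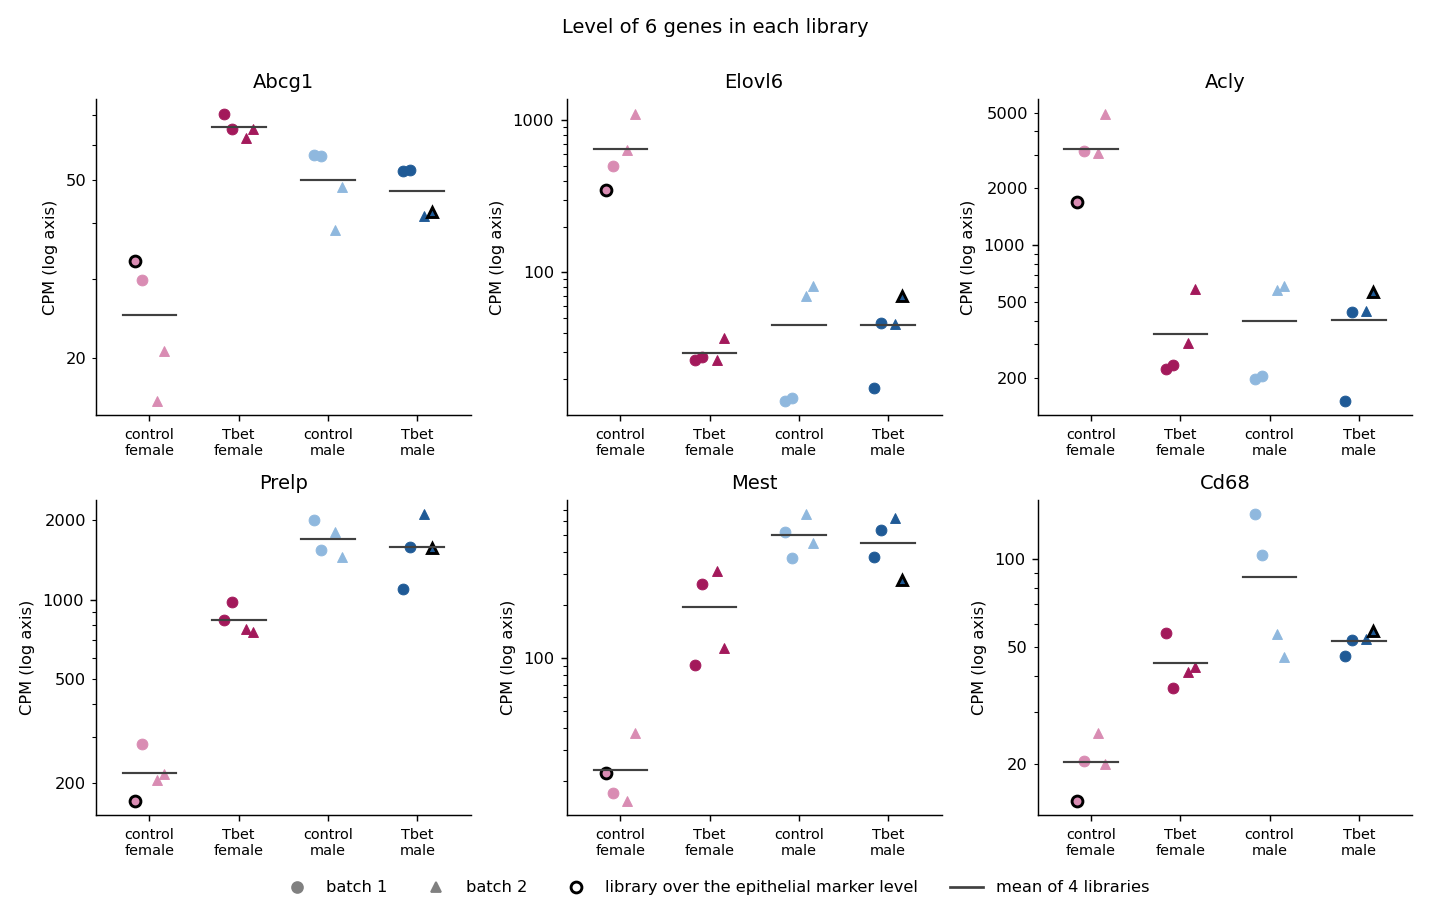
Levels of 6 genes in CPM on log axes, one point per library, with circles for batch 1, triangles for batch 2, a black rim for libraries over the epithelial marker level and a line at the mean of 4. Control females stand apart from the other 3 groups in each panel: low for Abcg1, Prelp, Mest and Cd68, high for Elovl6 and Acly.

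Fatty acid synthesis genes had their highest mean in control females. With the knockout, 15 of 19 were called lower in females (0.64% of all genes tested), and none was called in males. Their summed level, to which Scd1 and Fasn gave the most, was 6571 to 11200 CPM in Tbet knockout females, below all males (18920 to 41890 CPM), and that of control females (18140 to 77920 CPM) overlapped the males. All 19 tested genes of the list had a positive difference, 16 of them at an unadjusted p under 0.05 (5.89% of all genes tested). None was negative at that level, and none passed the adjusted threshold (lowest adjusted p = 0.0979 in edgeR). The median difference was 2.28, against 0.03 over all genes. The median effect was −2.00 in females and 0.00 in males.

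Elovl6, which lengthens palmitate to stearate, had the largest difference of the list. It stood at 349, 638, 501 and 1103 CPM in control females and at 26.5, 26.7, 28 and 37 CPM in the knockouts of that sex. Male levels were 14.4, 70.5, 15.1 and 81.3 CPM in controls and at 17.5, 45.6, 46.7 and 70.5 CPM in knockouts. Every control female exceeded all 12 other libraries, and the male groups overlapped. The knockout lowered it 20-fold in females (log2 −4.32, SE 0.60, adjusted p = 0.0039 in edgeR) and had a log2 effect of 0.19 (SE 0.53) in males, a difference of 4.51 (SE 0.78, adjusted p = 0.0979).

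Acly encodes ATP citrate lyase, which supplies cytosolic acetyl-CoA. It stood at 1692, 3086, 3143 and 4963 CPM in control females, 223, 307, 235 and 591 CPM in Tbet knockout females, 196, 582, 204 and 613 CPM in control males and 152, 452, 443 and 567 CPM in Tbet knockout males. Again only the control females lay apart, above all other libraries. The difference was 3.39 (SE 0.64, adjusted p = 0.0979 in edgeR).

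Acss2, which makes acetyl-CoA from acetate, had a difference of 3.21 (SE 0.68, adjusted p = 0.138 in edgeR). Acaca (acetyl-CoA carboxylase) had 2.48, Fasn (fatty acid synthase) 3.11, Slc25a1 (the mitochondrial citrate carrier) 2.01, Thrsp 2.35 and Pnpla3 2.28, with adjusted p values from 0.138 to 0.235. These 5 were chosen after their values were seen. Their effects in males lay between −0.18 and 0.66.

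Scd1, the desaturase that makes oleate, was also picked after its values were seen, because its pattern across the groups was another one. It stood at 6429, 40820, 13240 and 38370 CPM in control females and at 15770, 32100, 16620 and 20730 CPM in control males, which overlapped. Tbet knockout females, at 4136, 3928, 3376 and 5154 CPM, lay below all other libraries, and Tbet knockout males stood at 15350, 19880, 20370 and 24620 CPM. The difference was 2.34 (SE 0.52, adjusted p = 0.153 in edgeR).

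Across the list, 8 of 19 genes had every control female above the 12 other libraries, against 121 of all genes tested (0.679%): Acaca, Acly, Slc25a1, Fads1, Acss2, Elovl6, Thrsp and Me1. The control female mean was the highest of the 4 groups for 19 of 19, against 35.6% of all genes. Of the transcription factors of the pathway, chosen after their values were seen, Srebf1 (SREBP-1) had a difference of 0.93 (adjusted p = 0.427 in edgeR) and Mlxipl (ChREBP) one of 1.27 (adjusted p = 0.336). In females Mlxipl fell (log2 −1.36, adjusted p = 0.0413), and Srebf1 had an effect of −1.02 (adjusted p = 0.112).

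The median of the list was 2.46 within batch 1, 1.94 within batch 2 and 2.28 without the libraries with epithelial transcripts, and from 1.97 to 2.33 when each library in turn was left out. Clock genes moved with the groups as well, in opposite directions in the batches. Dbp, a clock output gene, had a difference of 1.27 within batch 1 and −3.82 within batch 2. The part of clock phase in the fatty acid synthesis difference was not tested.

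Of 10 tested genes that supply NADPH for this synthesis, 8 had a positive difference and 2 a negative one, with a median of 0.46. At an unadjusted p under 0.05, 4 were positive (5.89% of all genes tested) and none negative. Tkt, a transketolase of the pentose phosphate pathway, stood at 1863, 2574, 3633 and 3229 CPM in control females, 454, 439, 519 and 705 CPM in Tbet knockout females, 436, 530, 522 and 712 CPM in control males and 484, 518, 815 and 525 CPM in Tbet knockout males. Control females lay above all other libraries, and the difference was 2.50 (SE 0.48, adjusted p = 0.0979 in edgeR). Me1 (malic enzyme) had a difference of 2.67 (SE 0.56, adjusted p = 0.137). G6pdx, the first enzyme of the pathway, chosen after its value was seen, had −0.28 (adjusted p = 0.842).

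**Figure D3:**
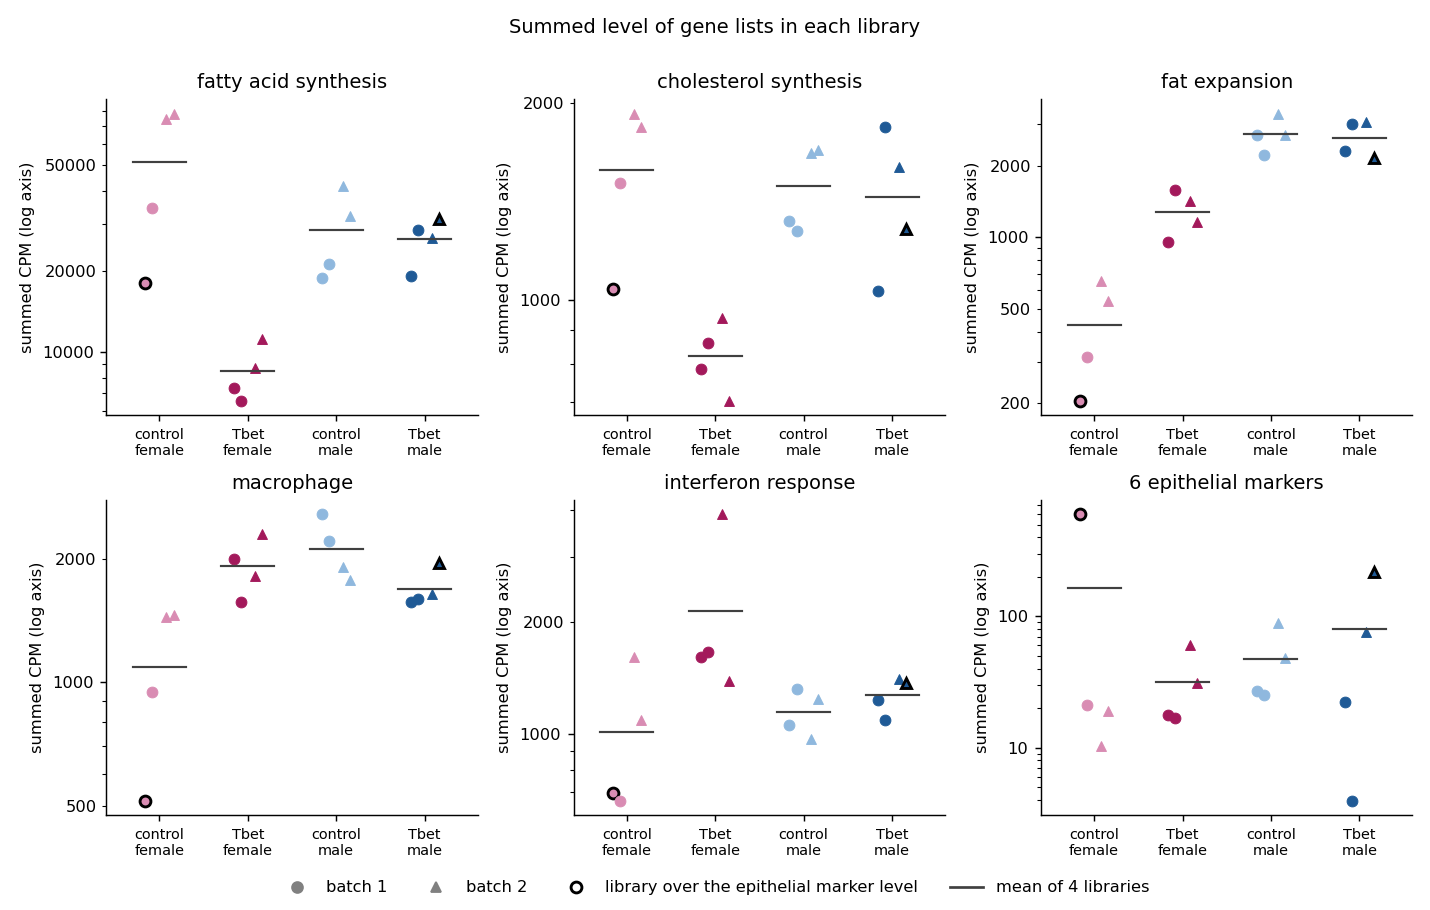
Summed CPM of 6 gene lists on log axes, one point per library, with circles for batch 1, triangles for batch 2, a black rim for libraries over the epithelial marker level and a line at the mean of 4. Tbet knockout females lie below every other library for fatty acid and cholesterol synthesis, from 6571 to 11200 CPM and from 704 to 939 CPM, and control females lie lowest for fat expansion, from 206 to 652 CPM.

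Cholesterol synthesis genes had their lowest summed level in Tbet knockout females, and the sums of control females overlapped those of the males. The fatty acid synthesis sums stood likewise. Of 23 tested genes, 16 had a positive difference at an unadjusted p under 0.05 (5.89% of all genes tested) and none a negative one. The median was 1.12 (1.01 within batch 1, 1.30 within batch 2), and none was called (lowest adjusted p = 0.142). The median effect was −1.12 in females, with 10 of 23 called lower (0.64% of all genes tested), and −0.01 in males, with 0 called. No member had every control female above the 12 other libraries, against 8 of 19 fatty acid synthesis genes. The control female mean was the highest of the 4 groups for 15 of 23 (65.2%), against 35.6% of all genes tested.

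Sqle encodes squalene epoxidase, a control point of the pathway. It stood at 39.7, 37.1, 32.8 and 38.7 CPM in control females, 11.2, 12.1, 13.6 and 14.8 CPM in Tbet knockout females, 22.8, 38.7, 23.1 and 31.7 CPM in control males and 18.1, 36.8, 25.5 and 35.6 CPM in Tbet knockout males. Tbet knockout females lay below all 12 other libraries, and the other 3 groups overlapped. The difference was 1.51 (SE 0.33, adjusted p = 0.142 in edgeR), from an effect of −1.52 in females and −0.01 in males. Fdps (farnesyl diphosphate synthase) had a difference of 1.71 (SE 0.43, adjusted p = 0.233).

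Nsdhl and Lss, whose start regions are printed above, had differences of 1.47 and 1.61. Insig1, a sterol-responsive protein of the endoplasmic reticulum, had 1.63 (adjusted p = 0.348 in edgeR). Srebf2 (SREBP-2) had 0.41 (adjusted p = 0.526) and Hmgcs1, an early enzyme of the pathway, −0.20 (adjusted p = 0.919). These 5 were chosen after their values were seen.

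Genes linked to fat expansion went the other way. Their summed level was lowest in control females, intermediate in Tbet knockout females and highest in both male groups, without overlap between these tiers. Of 8 tested, 5 had a negative difference at an unadjusted p under 0.05 (5.62% of all genes tested) and none a positive one. The median was −1.66. The median effect was 1.74 in females, with 4 of 8 called higher (0.583% of all genes tested), and −0.02 in males. For 3 of 8 every control female lay below the 12 other libraries (Npr3, Sfrp5 and Mest), against 210 of all genes tested (1.18%).

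Mest, an imprinted gene whose expression rises when fat expands, stood at 22.4, 15.4, 17.2 and 37.7 CPM in control females and at 91.8, 313, 265 and 114 CPM in the knockouts of that sex. Male levels were 524, 662, 371 and 456 CPM in controls and at 375, 628, 536 and 278 CPM in knockouts. The female groups did not overlap, while the male groups did. The difference was −3.21 (SE 0.69, adjusted p = 0.138 in edgeR). Sfrp5, a secreted inhibitor of Wnt signalling, had a difference of −4.47 (SE 1.04, adjusted p = 0.181). Bmp3 had −1.91, Npr3 (the natriuretic peptide clearance receptor) −1.41 and Lep (leptin) −1.76, with adjusted p values from 0.236 to 0.326, and these 3 were chosen after their values were seen.

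The 19 tested mature adipocyte genes had a median difference of −0.58. At an unadjusted p under 0.05, 6 were negative and 0 positive (5.62% and 5.89% of all genes tested). Their summed level was 10270, 61000, 22460 and 43650 CPM in control females and from 40150 to 49580 CPM in Tbet knockout females, so the groups overlapped and the 2 batch 1 control females were the low ones. For 5 of 19 (26.3%) every control female lay below the 12 other libraries, against 1.18% of all genes tested. These were Npr3, Sfrp5, Nnat, Lep and Mest, of which 3 are also in the fat expansion list. For 13 of 19 (68.4%) the control female mean was the lowest, against 28.1% of all genes tested. Among the other lists this share ran from 0% (mesothelium among them) to 93.3% (endothelial cell), with 83.3% for macrophage genes. It is therefore not particular to adipocyte genes. The part of adipocyte content in the fat expansion difference was not tested. The median was −1.22 within batch 1, −0.21 within batch 2 and −0.17 without the libraries with epithelial transcripts. Over the same settings the fat expansion list had −2.37, −1.28 and −1.27. Adipoq (adiponectin), chosen after its value was seen, had a difference of −0.31 (adjusted p = 0.863 in edgeR).

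A further 3 negative differences were in genes of the matrix around cells. Prelp, a proteoglycan of connective tissue, stood at 172, 207, 281 and 216 CPM in control females, 836, 772, 979 and 752 CPM in Tbet knockout females, 2014, 1802, 1538 and 1456 CPM in control males and 1095, 2117, 1589 and 1567 CPM in Tbet knockout males. Its levels fell into 3 tiers that did not overlap: control females, Tbet knockout females and all males. The difference was −2.06 (SE 0.39, adjusted p = 0.0979 in edgeR). Crtac1, a cartilage matrix protein, rose from 1.16, 1.78, 0.252 and 0.903 CPM in control females to 14.5, 8.52, 19.9 and 10.7 CPM in Tbet knockout females (13.7-fold, adjusted p = 0.00547). It lay between 54.6 and 104 CPM in all males, and its difference was −4.05 (SE 0.78, adjusted p = 0.0979). Svep1, an extracellular adhesion protein, had −2.06 (SE 0.41, adjusted p = 0.0979).

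The list of 19 extracellular matrix genes, which does not hold these 3, had a median of −0.43. At an unadjusted p under 0.05, 4 were negative and 0 positive (5.62% and 5.89% of all genes tested). Its members with the smallest p were Lox, which crosslinks collagen (difference −1.60, SE 0.46, adjusted p = 0.278 in edgeR), and Bgn (biglycan, −0.89, SE 0.28, adjusted p = 0.319).

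Other genes with the smallest p had smaller levels or mixed roles. Mageb18, a gene of the MAGE family, had 0 counts in all 4 control females, 47 counts over the Tbet knockout females and 294 over the control males. Against a floor of 3 counts over the group, the level in Tbet knockout females was at least 22.6-fold higher than in control females, and that in control males at least 120-fold higher. In Tbet knockout males it stood at 3.1, 6.11, 4.77 and 4.66 CPM, against 4.73, 3.72, 3.08 and 2.83 CPM in control males, so the male groups overlapped. The difference had an adjusted p of 0.0979 in edgeR. Gabrr2 (a GABA receptor subunit) had a difference of −3.73 (SE 0.73, adjusted p = 0.0979) and Ptchd4 one of −3.13 (SE 0.66, adjusted p = 0.136).

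Cpt1a, which admits fatty acids to mitochondria for oxidation, moved opposite to the synthesis genes. It stood at 62.7, 73.3, 50.1 and 74.5 CPM in control females, 85.3, 149, 82.8 and 127 CPM in Tbet knockout females, 122, 167, 126 and 169 CPM in control males and 93.1, 153, 112 and 138 CPM in Tbet knockout males. The control females lay below the other 12 libraries, and batch 2 lay above batch 1 in every group. The difference was −0.98 (SE 0.19, adjusted p = 0.0979 in edgeR). Rad50, a DNA repair protein, had −1.19 (SE 0.24, adjusted p = 0.0979).

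On the positive side, 2 chaperone genes were high in control females. Dnaja1, a co-chaperone of HSP70, stood at 176, 138, 151 and 136 CPM in control females, 109, 79.5, 86.2 and 87.5 CPM in Tbet knockout females, 75, 73.9, 104 and 80.2 CPM in control males and 93.5, 89.7, 98.9 and 94.1 CPM in Tbet knockout males. Control females lay above the rest, and the other 3 groups overlapped. The difference was 0.91 (SE 0.18, adjusted p = 0.0979 in edgeR). Fkbp4, a co-chaperone of HSP90 and steroid receptors, had 1.10 (SE 0.23, adjusted p = 0.137).

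Parm1, a membrane glycoprotein, had a difference of 3.02 (SE 0.59, adjusted p = 0.0979 in edgeR). Mid1ip1, which promotes polymerisation of acetyl-CoA carboxylase, had 2.05 (SE 0.43, adjusted p = 0.136), with 266, 216, 213 and 135 CPM in control females and 57.4, 60.6, 56.8 and 50.1 CPM in the knockouts of that sex. Male levels lay between 73 and 132 CPM, so all 3 other groups lay above the Tbet knockout females. Zbtb26, a zinc finger protein, had 1.31 (SE 0.27, adjusted p = 0.136).

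Of 18 insulin signalling and glucose genes, 5 had a positive difference at an unadjusted p under 0.05 (5.89% of all genes tested) and 0 a negative one. The median was 0.33. Pdk1, a kinase that inhibits pyruvate dehydrogenase, had a difference of 1.03 (SE 0.27) and Ppp1r3b (a glycogen-targeting phosphatase subunit) 2.81 (SE 0.74), both with an adjusted p of 0.236 in edgeR. The 13 tested thermogenic genes were all positive, with a median of 0.69 and 2 at an unadjusted p under 0.05 (5.89% of all genes tested). Elovl3, a fatty acid elongase of brown fat, had the smallest p of these (difference 4.04, SE 1.39, adjusted p = 0.336). It stood at 5.57, 1.35, 1.98 and 3.5 CPM in control females and at most 0.782 CPM in the other 12 of the 16 libraries.

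**Figure D4:**
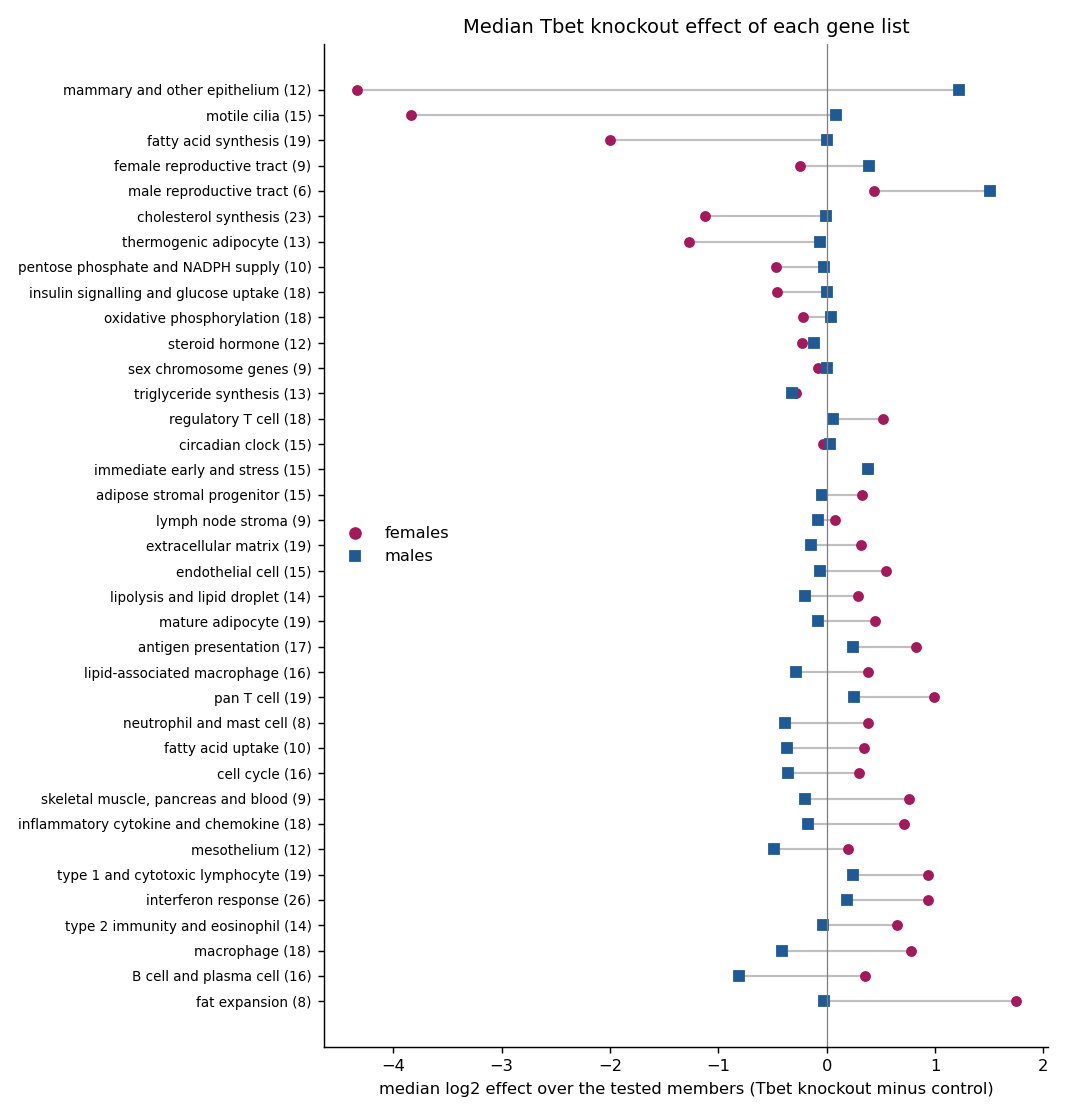
Median log2 Tbet knockout effect over the tested members of each of 37 gene lists (number tested in parentheses), with circles for females and squares for males, ordered by the median difference. Fatty acid synthesis stands at −2.00 in females and 0.00 in males, and fat expansion at 1.74 and −0.02.

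Macrophage genes had negative differences, with median effects of opposite sign in the sexes. All 18 tested members were negative, 15 of them at an unadjusted p under 0.05 (5.62% of all genes tested). None was called (lowest adjusted p = 0.235 in edgeR). The median difference was −1.28, from a median effect of 0.78 in females and −0.41 in males, with 0 of 18 called in either sex. In controls, 13 of 18 were called higher in males than in females, against 2423 of all 17824 genes tested. The summed level was 515, 1441, 948 and 1460 CPM in control females, 1992, 1817, 1571 and 2300 CPM in Tbet knockout females, 2569, 1908, 2203 and 1773 CPM in control males and 1568, 1639, 1600 and 1953 CPM in Tbet knockout males. Control females lay below the other 12 libraries, and their batch 1 libraries were the lowest. Among the batch 1 libraries the control males were highest, at 2569 and 2203 CPM against 1568 and 1600 CPM in Tbet knockout males. In batch 2 the male groups overlapped, at 1908 and 1773 CPM in controls and 1639 and 1953 CPM in knockouts.

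Cd68, a lysosomal protein of macrophages, stood at 14.9, 25.5, 20.5 and 20 CPM in control females and at 56, 41.2, 36.4 and 42.9 CPM in the knockouts of that sex. Male levels were 143, 55.3, 104 and 46.3 CPM in controls and at 46.8, 53.2, 52.8 and 56.6 CPM in knockouts. The female groups did not overlap, and the 2 batch 1 control males stood above all other libraries. The difference was −1.84 (SE 0.47, adjusted p = 0.235 in edgeR). C1qb, a complement subunit made by resident macrophages, had −1.50 (SE 0.43, adjusted p = 0.278). Csf1r, the receptor for their growth factor, had −1.15 and Adgre1, which encodes F4/80, −1.15, with adjusted p values of 0.301 and 0.357 (both chosen after their values were seen).

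The macrophage median was −1.93 within batch 1 and −0.64 within batch 2, and −1.09 without the libraries with epithelial transcripts. The 16 lipid-associated macrophage genes had −0.70, and −1.49 and 0.03 in the batches. At an unadjusted p under 0.05, 2 were negative and 0 positive (5.62% and 5.89% of all genes tested). Mmp12, a macrophage elastase, stood at 0.116, 0.396, 0.126 and 0.639 CPM in control females and from 1.17 to 19.6 CPM in Tbet knockout females, while males lay between 21.5 and 88.3 CPM (difference −5.54, SE 1.53, adjusted p = 0.267 in edgeR). Lipa, lysosomal acid lipase, had −0.98 (SE 0.34, adjusted p = 0.336).

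Genes of the interferon response and of antigen presentation had larger median knockout effects in females than in males. Of 26 interferon response genes, 25 had a negative difference, 11 of them at an unadjusted p under 0.05, with none positive at that level. The median was −0.88, from effects of 0.94 in females (7 called higher) and 0.19 in males (0 called). The 17 antigen presentation genes had a median of −0.60, with 6 negative at an unadjusted p under 0.05. Their effects were 0.83 in females (6 called higher) and 0.25 in males (0 called). Of all genes tested, 5.62% were negative at an unadjusted p under 0.05, and 0.583% were called higher in females. The medians were −1.14 and −0.94 within batch 1 and −0.55 and −0.22 within batch 2.

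Ubd, an interferon-induced ubiquitin-like modifier, stood at 1.04, 2.81, 0.755 and 1.47 CPM in control females and at 37.9, 11.4, 31 and 5.66 CPM in Tbet knockout females, without overlap. Male levels were 39.2, 21.6, 23.6 and 42.3 CPM in controls and at 10.5, 53.5, 19.3 and 21.7 CPM in knockouts, with overlap. The difference was −4.79 (SE 1.24, adjusted p = 0.235 in edgeR). Gbp4, an interferon-induced GTPase, had −1.68 (SE 0.51, adjusted p = 0.281). Psmb8, an immunoproteasome subunit, had −1.03 (adjusted p = 0.336) and was chosen after its value was seen. Tbet knockout female replicate 2 had the highest summed interferon response of the 16 libraries, 3912 CPM against 660 to 1658 CPM in the other 15.

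Among antigen presentation genes, Cd86, a co-stimulatory molecule, had the smallest p (difference −1.16, SE 0.37, adjusted p = 0.32 in edgeR), followed by H2-DMb1, a class II peptide exchanger, among those named by the rule (−0.85, SE 0.35, adjusted p = 0.381). The class II genes Cd74 and H2-Ab1, chosen after their values were seen, had −0.71 and −0.70. H2-Ab1 stood at 206, 174, 206 and 140 CPM in control females and at 555, 298, 558 and 209 CPM in Tbet knockout females, where batch 1 was high in the knockouts.

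Lymphocyte lists depended on batch. The 19 pan T cell genes had a median difference of −0.71, the 19 type 1 and cytotoxic genes −0.86 and the 18 inflammatory cytokine and chemokine genes −0.78. At an unadjusted p under 0.05, 0, 1 and 1 were negative and none positive (5.62% and 5.89% of all genes tested). In batch 1 alone these medians were −1.26, −2.13 and −1.78, and in batch 2 alone 0.14, 0.39 and 0.86. The summed type 1 level was 80.5 and 78.4 CPM in the batch 1 Tbet knockout females and between 15 and 60.3 CPM in the other 14 of the 16 libraries. Fasl, a cytotoxic effector, had a difference of −3.13 (SE 1.33, adjusted p = 0.387 in edgeR), at levels under 1 CPM.

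The 18 tested genes of regulatory T cells, the cells in which Tbx21 was deleted, had a median of −0.08. At an unadjusted p under 0.05, 1 was positive and 2 were negative (5.89% and 5.62% of all genes tested). Tnfrsf9, a receptor found on activated regulatory T cells, stood at 0.232, 0.515, 0.283 and 1.09 CPM in control females, 1.45, 1.52, 1.83 and 1.21 CPM in Tbet knockout females, 0.615, 0.62, 0.888 and 0.25 CPM in control males and 0.305, 0.746, 0.331 and 0.376 CPM in Tbet knockout males. Tbet knockout females lay above all others (difference −1.98, SE 0.74, adjusted p = 0.356 in edgeR).

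The 14 tested type 2 immunity genes had a median of −1.09, and −2.13 and −0.09 in the batches. At an unadjusted p under 0.05, 4 were negative and 0 positive (5.62% and 5.89% of all genes tested). Mrc1, the mannose receptor of alternatively activated macrophages, had −1.31 (SE 0.46, adjusted p = 0.336 in edgeR) and the cytokine Il13, at levels under 0.9 CPM, −3.27 (SE 1.23, adjusted p = 0.357). The 16 B cell genes were all negative, with a median of −1.29 and 0 at an unadjusted p under 0.05. Their median effect was 0.36 in females and −0.81 in males, and Cd79b, a chain of the B cell receptor, had a difference of −1.82 (SE 0.90, adjusted p = 0.445). The summed B cell level was 4177 CPM in control male replicate 4 and between 765 and 1656 CPM in all other libraries compared. The median difference was −0.72 without that library, and it ranged from −1.98 to −0.72 when each library in turn was left out.

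Epithelial lists rested on single libraries. The 12 tested genes of mammary and other epithelium had the largest median difference of the 37 lists, 6.89, and it was 0.22 without control female replicate 1 and −1.46 without all libraries with epithelial transcripts. Motile cilia genes went from 3.78 to −0.08 and −0.25, and female reproductive tract genes from 1.69 to 0.32 and 0.03. Ovgp1, the oviduct glycoprotein, stood at 4629 CPM in control female replicate 1 and between 1.96 and 4.98 CPM in the other 15 libraries. Pax8, a factor of the reproductive tract, and the cilia gene Ttc25 were likewise highest in that library, at 62.7 and 46.5 CPM. The male reproductive list summed to 886 CPM in Tbet knockout male replicate 4 and to at most 35.9 CPM in the other 15.

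Without the libraries with epithelial transcripts, 31 genes were called for the difference, 28 positive and 3 negative, in edgeR. That fit also lacked the Pparg knockout libraries over the epithelial level, and the 16 libraries alone gave 25 called genes. The negative ones were Abcg1, Cpt1a and Mageb18. The positive ones included the fatty acid genes Elovl6 (4.54, adjusted p = 0.0203 in edgeR), Acly, Acaca, Acss2, Slc25a1 and Scd1. They also included the cholesterol synthesis genes Nsdhl (1.61, adjusted p = 0.0203 in edgeR), Idi1 (1.26), Pmvk (1.69) and Sc5d (1.44).

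**Figure D5:**
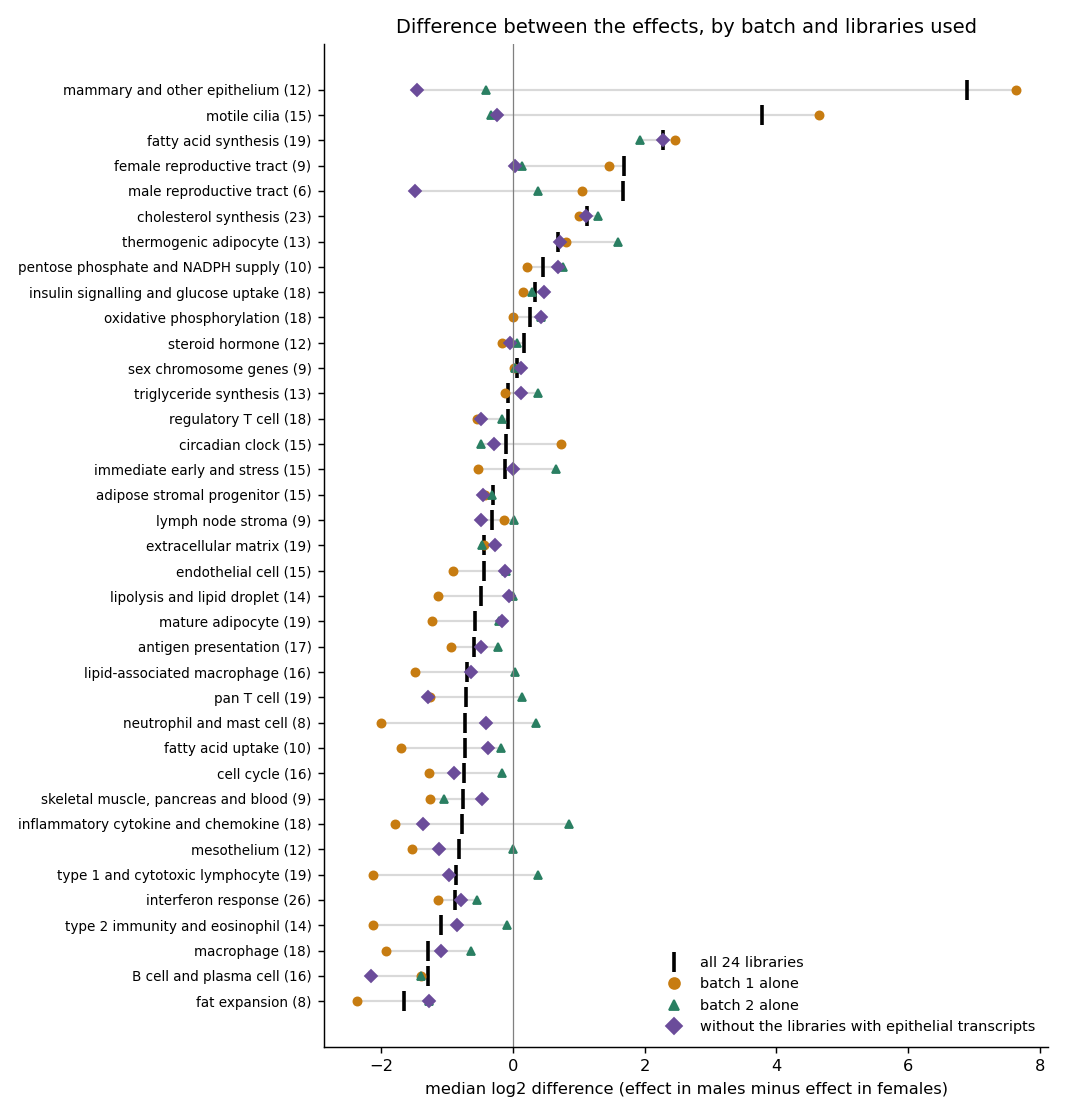
Median log2 difference between the effects in males and females for each of 37 gene lists (number tested in parentheses), from all 24 libraries (bars), batch 1 alone (circles), batch 2 alone (triangles) and without the libraries with epithelial transcripts (diamonds). Fatty acid synthesis stays between 1.94 and 2.46, macrophage genes between −1.93 and −0.64, and the epithelial lists move to near or below 0 without those libraries.

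Clock genes differed between batches rather than by a common effect. The 15 tested had a median of −0.10, 0.73 within batch 1 and −0.49 within batch 2, with 0 of either sign at an unadjusted p under 0.05 over both batches. Dbp stood at 101, 12.2, 96.4 and 13 CPM in control females, 48.5, 93, 48.3 and 114 CPM in Tbet knockout females, 37.8, 24.1, 64.4 and 22.5 CPM in control males and 68.3, 12.9, 52.1 and 14.1 CPM in Tbet knockout males. The batch 2 Tbet knockout females were high where the other 6 batch 2 libraries were low. Arntl, a core clock activator with the opposite phase, stood at 10.7 and 11.6 CPM in those 2 libraries and between 32.7 and 45.8 CPM in the other 6. In batch 2 alone these were the 2 genes called (Dbp −3.82 and Arntl 2.23, adjusted p = 0.00303 in edgeR for both). The time of day of sampling is not given in the sources used here, and its part in the other results was not tested.

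Ide, the insulin-degrading enzyme, was the 1 gene called in males, and it fell in both sexes. It stood at 105, 157, 144 and 163 CPM in control females, 61, 72.8, 50.2 and 78.6 CPM in Tbet knockout females, 114, 134, 118 and 122 CPM in control males and 50.7, 74.6, 62.4 and 78.7 CPM in Tbet knockout males. Neither sex had overlapping groups. The effects were −1.12 in females (adjusted p = 0.000831 in edgeR) and −0.89 in males (adjusted p = 0.047), and their difference was 0.23 (SE 0.19, adjusted p = 0.663). The effect in males was negative under all 30 alternatives, from −1.02 to −0.73, but the call in males was kept under 9 of them. With 1 library left out it was kept in 2 of 16 fits, without control female replicate 1 or 3, and lost in the others.

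The remaining lists had few members past an unadjusted p of 0.05. Of all genes tested, 5.89% were positive and 5.62% negative at that level. Fatty acid uptake genes had a median of −0.73 (2 of 10 negative, among them Angptl4, an inhibitor of lipoprotein lipase, at −2.15), and lipolysis genes −0.48 (3 of 14 negative, led by Aqp7, a glycerol channel, at −1.61, and Cidec, a lipid droplet protein, at −1.58). All 18 oxidative phosphorylation genes were positive with a median of 0.26, and triglyceride synthesis genes had −0.07 (0 of either sign). Endothelial genes had −0.44 (3 of 15 negative), stromal progenitor genes −0.31 (4 of 15), mesothelium genes −0.81 (0 of 12), cell cycle genes −0.75 (2 of 16 negative, Mcm5 and Cdk1) and immediate early genes −0.12 (2 positive and 1 negative of 15, among them Hspa1a at 0.96 and Zfp36 at −0.59). Neutrophil and mast cell genes had −0.73 (1 positive and 1 negative of 8), lymph node stroma genes −0.32 (0 of 9) and steroid hormone genes 0.17 (0 of 12). Muscle, pancreas and blood genes had −0.76 (1 of 9 negative) and sex chromosome genes 0.06 (1 positive and 1 negative of 9). Male reproductive genes had 1.68 (1 positive and 1 negative of 6), and 0.13 without control female replicate 1. Under the alternatives other than leaving out single libraries, their median ran from −1.49 to 3.54.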

How the data were processed

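Total RNA from visceral fat was sequenced with a TruSeq RNA kit. The authors deposited raw counts per gene, made with featureCounts against GRCm38 (mm10) per the submitters' processing notes, which also name limma. The aligner is not given in the sources used here. The authors also deposited log2 FPKM values, used only for 1 alternative. Genes without a symbol (1029, with 0.433% of counts) were tested and not named. The counts were fitted with edgeR 4.0.16 in R 4.3.3: TMM scaling, the default expression filter, 6 groups plus batch over 24 libraries, and the robust quasi-likelihood test, with Benjamini-Hochberg adjustment over 17824 genes and a threshold of 0.05. CPM use the TMM library sizes. The script was tested on simulated data. Gene positions and promoter windows are RefSeq's (GRCm38.p6), matched by gene ID, positions for 17238 of the tested genes.

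Members and gene lists were chosen with earlier results of these data known. With fewer than 10 genes called, the naming rule took the 10 genes of each sign with the smallest p for the difference whose mean log2 CPM reached 1, plus the 2 members of each described list with the smallest p. It added Tbx21, Foxp3, Pparg and sex-linked genes, and left out predicted genes and clones. Any other gene was chosen after its values were seen. Alternatives were DESeq2 1.42.0, limma 3.58.1 (voom with quality weights, and on log2 FPKM), other scalings, filters and batch terms, each batch alone, and leaving out libraries. The title of control female replicate 1 was followed where its source name gives another number and batch. Some withheld items are not reported here.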

Additional observations from a re-analysis of the deposited data

Results flagged for a closer look

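The difference between the sexes in the knockout effect on Abcg1 is flagged because the test of the difference itself passed its threshold (log2 difference −1.50, adjusted p = 0.0405 in edgeR's quasi-likelihood test, with all 4 Tbet knockout females above all 4 control females and overlapping male groups).

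The other 24 values are single libraries far from the other 3 of their group by Dixon's criterion, out of 376 groups examined (94 genes in 4 groups). Chance flags about 1 in 20 groups. All values are CPM. Control female replicate 1 was high for 6 epithelial and cilia genes, with 232.6 for Krt18, 4629 for Ovgp1, 62.65 for Pax8, 184.3 for Cldn3, 46.47 for Ttc25 and 376.4 for Foxj1. Tbet knockout male replicate 4 was high for Xist (23.3), Pdk1 (65.18), Cldn3 (36.84) and Ucp1 (0.677). Tbet knockout male replicate 3 was high for Tkt (815), Me1 (668.1) and Pnpla3 (956.5). Tbet knockout male replicate 2 was high for Tnfrsf9 (0.746) and H2-DMb1 (49.05), and Tbet knockout male replicate 1 was high for Psmb8 (79.05) and low for Cd86 (6.295).

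Tbet knockout female replicate 2 was high for Ppp1r3b (32.44), Ucp1 (3.501) and Pax8 (0.233). Tbet knockout female replicate 4 was high for Elovl6 (36.97) and low for Zbtb26 (6.97). Control male replicate 2 was low for Cd86 (7.561), and Ucp1 had 0 in control male replicate 1.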

How the results depend on the processing

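The number of genes called for the difference depended on the fit, from 1 in the edgeR fit given above. It was 0 with DESeq2's size factors in edgeR (2101 at an unadjusted p under 0.05), 0 with upper-quartile scaling (2115), 0 without a batch term (1190) and 0 with the batch read from the source name (1961). It was 231 with DESeq2, 13 with limma voom, 9 with limma on log2 FPKM, 25 from the 16 libraries alone, 38 with a batch term per sex, 183 in batch 1 alone, 2 in batch 2 alone and 31 without the libraries with epithelial transcripts. Leaving out 1 library gave 0 to 8 genes, with 8 without control female replicate 1. The effect in females had 115 without the expression filter, 1238 with DESeq2, 474 with voom, 340 on log2 FPKM, 28 without batch, 702 with batch per sex, 619 in batch 1 and 119 in batch 2, and 33 to 189 leaving out 1 library. The effect in males had 0 without the filter, 20 with DESeq2, 0 without batch, 0 with the source-name batch, 6 in batch 1, 0 in batch 2, 0 without the epithelial libraries and 0 to 1 leaving out 1 library. The sex difference in controls had 2391 without batch, 7282 with batch per sex, 1307 in batch 2 and 3084 to 5323 leaving out 1 library. In Tbet knockouts it had 2730 with DESeq2, 2856 with voom, 522 without batch, 3787 with batch per sex, 433 in batch 1, 1072 in batch 2 and 921 to 2233 leaving out 1 library. The cause of these changes was not tested, and the part of fewer libraries in the fits that leave some out was not tested either.

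Replicate numbers were tried as a pairing. Under a replicate block, used instead of the batch term, 0 genes were called for the difference (1655 at an unadjusted p under 0.05 in edgeR), 128 in females, 0 in males, 4508 and 1429 for the sex differences. After removal of batch means, 4 of 24 same-numbered pairs correlated above 0.1, and 3 of these were control and Tbet knockout males (replicates 2, 3 and 4 at 0.456, 0.497 and 0.148, with replicate 1 at −0.058). In no pair of groups did all 4 exceed 0.1, and 1 of 16 libraries correlated best with its own number, so the numbers were not taken as pairs.

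Of the values per gene, 36 changed sign. With voom these were Pparg 0.162, G6pdx 0.112, Hmgcs1 0.147, Pax8 −0.503, Cldn3 −0.47, Foxj1 −1.44 and Krt18 −0.094, and without batch Pparg 0.055. In batch 1 they were Gpam −0.09 and Dbp 1.27, and in batch 2 Pparg 0.463, G6pdx 0.562, Adipoq 0.077, Pax8 −3.06, Foxj1 −2.92, Mcm5 0.058 and Krt18 −0.798. Without the epithelial libraries they were Pparg 0.357, Abca1 0.006, Hmgcs1 0.199, Adipoq 0.152, Pax8 −2.06, Ovgp1 −0.041 and Cldn3 −1.46. Leaving out 1 library gave Pparg −0.333 to 0.285, Gpam −0.063 to 0.541, Abca1 −0.308 to 0, Hmgcs1 −0.594 to 0.043, Adipoq −0.64 to 0.008 and Pax8 −1.69 to 13.5. Genes near or under 1 CPM, Tbx21, Foxp3 and Tnfrsf9 among them, are limited by depth.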
